A study of Mus musculus with 3 samples.

Results

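Trophoblast transcription factors build the outer lineage of the mouse blastocyst, which goes on to form the placenta. The 7 genes described here were chosen by name as Cdx2, Eomes, Elf5, Tfap2c, Gcm1, Hand1 and Tead4, and are 7 of the 21938 protein-coding genes on 21 chromosomes of the GENCODE M21 annotation. The cells were F123, a male line of mouse embryonic stem cells (mESCs), in which chromatin immunoprecipitation sequencing (ChIP-seq) gave 3 lists of enriched regions. The line is an F1 hybrid of S129/Jae and Cast mice, all 3 libraries came from untreated cells of this 1 line, and the cells had been moved from feeder fibroblasts to gelatin before harvest. The libraries mapped H3K27me3, the histone mark of Polycomb repressive complex 2, and RNA polymerase II whose C-terminal repeats carry phosphate on serine 5 (called Pol2-S5p) or on serine 7 (called Pol2-S7p). Each mark had 1 library, so no value has a replicate error and no difference was tested. The lists carry no read counts, and the depth behind a region was not used here.

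In the blastocyst, Tead4 acts at the top of this network: with the Hippo co-activators Yap1 and Wwtr1 it switches on Cdx2 in outer cells, and Cdx2, Eomes, Elf5 and Tfap2c then keep trophoblast stem cells dividing. Hand1 and Gcm1 act later and drive the differentiation of giant cells and of the labyrinth. Embryonic stem cells come from the inner cells, which do not follow this path. Pol2-S5p marks polymerase near the start of transcription and is also found at many Polycomb-bound promoters, whereas Pol2-S7p accompanies polymerase at productive genes.

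The first comparison asked which marks each promoter carried. A promoter was the 2 kb window centred on a transcription start site (TSS), and a mark was present when a region touched it. Promoters with Pol2-S5p and Pol2-S7p are called Active, those with all 3 marks PRCa, those that lack only Pol2-S7p PRCr, and those with none Inactive. The 7 factors fell into 4 kinds. Cdx2 and Hand1 were PRCr, Eomes and Tfap2c were PRCa, Elf5 and Gcm1 were Inactive, and Tead4 changed with the start that was used.

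Where a gene had several starts, the one with the longest Pol2-S5p cover was chosen, then the longest Pol2-S7p cover, then the longest transcript. At the chosen starts 4 of the 7 factors had H3K27me3, against 37.7% of all protein-coding genes. Pol2-S5p was present at 5 of 7 (69.9% of all genes) and Pol2-S7p at 3 of 7 (60.4%). By state, 2 of 7 were PRCr (7.66% of all genes), 2 PRCa (23.9%), 2 Inactive (23.5%) and 1, Tead4, Active (35.9%). None had H3K27me3 only (6.02% of all genes), Pol2-S5p only (2.46%), Pol2-S7p only (0.406%) or H3K27me3 with Pol2-S7p (0.173%). With the start of the longest coding transcript in place of the chosen one, Tead4 was PRCa, 5 of 7 factors had H3K27me3 (39.5% of all genes), and none was Active. The state differed between these starts at 1574 of the 21938 genes (7.17%).

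**Figure D1:**
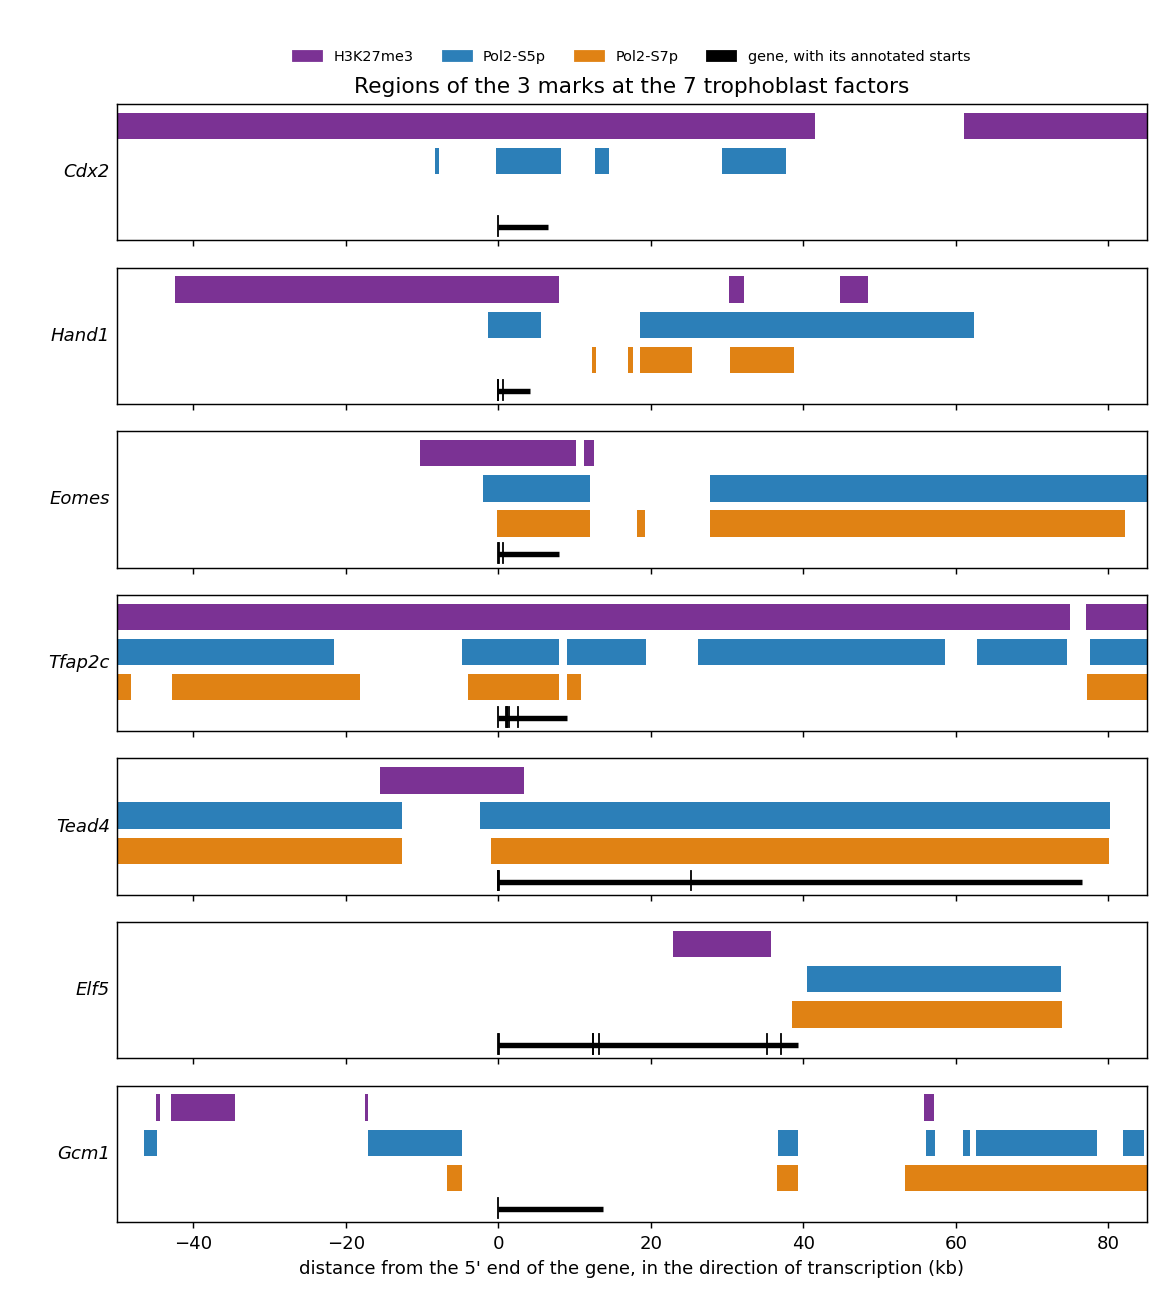
Regions of H3K27me3, Pol2-S5p and Pol2-S7p (bars) around each factor, with the distance from the 5′ end of the gene in kb along the direction of transcription, and the gene with its annotated starts in black. H3K27me3 lies over all of Cdx2, Hand1, Eomes and Tfap2c, over the first 3424 bp of Tead4 and over the inner part of Elf5, and no region of any mark touches Gcm1.

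Promoter sequence was described next. CpG-rich promoters are the usual sites of Polycomb in mESCs. RefSeq (GRCm38.p6) promoter entries were used for 4 of the 7 factors, Cdx2, Eomes, Elf5 and Gcm1, which are 2 promoters with H3K27me3 and 2 without any mark. The stretches below hold only bases upstream of annotated exons. They run 5′ to 3′, and capitals mark CpG dinucleotides.
Cdx2: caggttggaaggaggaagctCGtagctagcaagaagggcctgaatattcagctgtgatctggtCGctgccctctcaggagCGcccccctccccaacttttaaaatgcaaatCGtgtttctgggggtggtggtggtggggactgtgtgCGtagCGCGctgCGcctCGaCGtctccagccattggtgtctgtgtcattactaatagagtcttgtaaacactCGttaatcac
Eomes: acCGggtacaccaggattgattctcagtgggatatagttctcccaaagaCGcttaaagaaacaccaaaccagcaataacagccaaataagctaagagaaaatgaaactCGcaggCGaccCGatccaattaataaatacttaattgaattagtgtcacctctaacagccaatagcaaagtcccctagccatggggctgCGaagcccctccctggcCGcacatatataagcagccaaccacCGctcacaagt
Elf5: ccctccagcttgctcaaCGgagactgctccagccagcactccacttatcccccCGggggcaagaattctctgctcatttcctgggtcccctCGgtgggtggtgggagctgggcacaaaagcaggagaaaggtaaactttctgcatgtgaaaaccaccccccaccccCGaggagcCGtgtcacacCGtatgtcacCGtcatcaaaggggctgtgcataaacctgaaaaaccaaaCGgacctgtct
Gcm1: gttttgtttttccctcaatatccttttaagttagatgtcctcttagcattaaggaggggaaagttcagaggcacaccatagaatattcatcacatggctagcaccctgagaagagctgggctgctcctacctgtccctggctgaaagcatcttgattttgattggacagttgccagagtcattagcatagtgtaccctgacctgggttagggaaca

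The Cdx2 stretch (chr5:147307271-147307499, minus strand, 229 bp) held 11 CpGs, and the Eomes stretch (chr9:118477939-118478188, plus strand, 250 bp) held 8. The Elf5 stretch (chr2:103423818-103424061, plus strand, 244 bp) also held 8. It precedes the inner start of Elf5-201, which lies 12374 bp into the gene. The Gcm1 stretch (chr9:78051708-78051923, plus strand, 216 bp) held 0. The ratio of observed to expected CpG was 0.671 for Cdx2, 0.621 for Eomes, 0.412 for Elf5 and 0 for Gcm1. H3K27me3 and Pol2-S5p covered the whole of the Cdx2 and Eomes stretches, Pol2-S7p covered 189 bp of the Eomes stretch, and no mark lay on the Elf5 or Gcm1 stretch.

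Binding motifs of the factors themselves were searched on both strands in the full RefSeq windows of 300 bp, of which the printed stretches are a part. The T-box motif GGTGTGA, bound by Eomes and its relatives, matched 1 time at Elf5 and at none of the others (3.98% of 32851 promoters hold it). The CDX motif TTTATG also matched 1 time, at Elf5 (11.8% of promoters). The TFAP2 motif GCCNNNGGC matched 1 time, at Cdx2 (16.6%), outside the stretch printed above. The TEAD motif GGAATG (14.7%), the GCM motif ATGCGGG (1.41%) and the exact TATA box string TATAAA (13.6%) matched none of the 4 windows. Only exact strings were searched, so a variant such as the tatataag in the printed Eomes stretch was not counted. A match is a run of letters and not a measured site.

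Where a gene had several starts, polymerase cover chose the 2 kb window, so its CpG ratio is not independent of the marks. Over the whole 2 kb window at the chosen start, the observed to expected CpG ratio was 0.760 for Eomes, 0.725 for Cdx2 and 0.680 for Tfap2c. Between 79.9% and 88.8% of all protein-coding genes had a lower ratio than these 3. Hand1, the other factor with H3K27me3 at its chosen start, stood at 0.424 (51.9% of genes lower), near the median of 0.401 over all genes. Gcm1 stood at 0.328. Elf5 stood at 0.164 at its chosen start, Elf5-206 at the 5′ end of the gene, with 18.7% of genes lower. The Elf5 stretch printed above belongs to the inner start of Elf5-201 instead. Tead4 stood at 0.181 at its chosen start inside the gene and at 0.696 at the start of its longest transcript. The medians by state were 0.600 for PRCa, 0.565 for Active, 0.483 for PRCr, 0.272 for H3K27me3 only and 0.142 for Inactive promoters, so promoters without H3K27me3 stood both above and below PRCr.

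**Figure D2:**
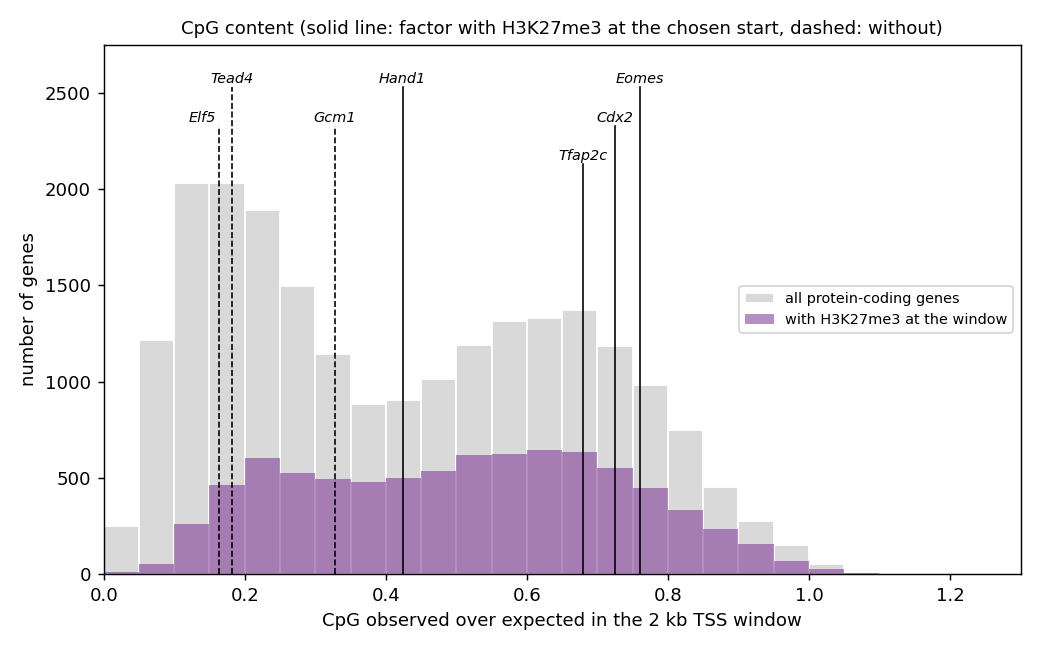
Number of protein-coding genes (y axis) by the ratio of observed to expected CpG in the 2 kb TSS window (x axis), for all genes and for those with H3K27me3 at the window, with lines for the 7 factors at their chosen starts. The factors with H3K27me3 lie between 0.424 and 0.760, and Elf5 (0.164), Tead4 at its inner start (0.181) and Gcm1 (0.328) lie to their left.

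The second comparison followed the marks from the promoter into the gene and its surroundings, beginning with the regulator at the top of the network. Tead4, which encodes a TEA domain factor that needs Yap1 or Wwtr1 to activate transcription, was the factor with the longest cover by polymerase. It lies on chromosome 6 from 128224288 to 128300823 on the minus strand, 76536 bp long. Pol2-S5p ran over the whole gene in 1 region of 82600 bp and Pol2-S7p in 1 region of 81000 bp. Wider regions made up 2.50% of the Pol2-S5p list and 2.42% of the Pol2-S7p list.

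H3K27me3 touched only the 5′ end of Tead4. A region of 19000 bp began 15576 bp upstream of the gene and ended 3423 bp inside it, in intron 1 of the longest coding transcript, and covered 4.47% of the gene. Of the 5 annotated transcripts, 4 begin within 85 bp of the 5′ end, and each of these windows was covered by H3K27me3 over all 2000 bp and touched by both polymerase marks (PRCa). The fifth, Tead4-203, begins 25246 bp inside the gene and had both polymerase marks over all 2000 bp and no H3K27me3. It was the chosen start, in a tie with Tead4-205 that the longer transcript decided. The score of the H3K27me3 region was 6.29, and 71.5% of H3K27me3 regions scored higher. Scores are those given by the peak finder of the authors, in no stated unit, and serve only to rank regions within a list. Upstream of Tead4 the neighbour Tulp3 was Active. Polymerase covered 89.8% (Pol2-S5p) and 88.4% (Pol2-S7p) of the 50 kb to each side of the chosen start. That start lies inside the gene, so most of this span is Tead4 itself.

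Cdx2, a caudal-type homeobox gene that represses the inner-cell program in trophectoderm, carried H3K27me3 and Pol2-S5p and no Pol2-S7p. It lies on chromosome 5 from 147300805 to 147307270 on the minus strand and has 1 annotated start. H3K27me3 covered the gene as part of a region of 150000 bp (chr5:147265800-147415799), and 1.03% of H3K27me3 regions were wider. Such a region of at least 150 kb touched 2.68% of protein-coding promoters, or 588 of the 8281 with H3K27me3. Within it a Pol2-S5p region of 8600 bp followed the outline of the gene. It began 329 bp upstream of the start, covered all 6466 bp of the gene and ended 1805 bp past its 3′ end. The nearest Pol2-S7p region lay 101330 bp upstream.

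The H3K27me3 region at Cdx2 held 4 coding starts, and none had Pol2-S7p. Pdx1, the pancreatic homeobox gene that neighbours Cdx2 in the ParaHox cluster, was PRCr with 100% of its body under both H3K27me3 and Pol2-S5p. Flt3, a receptor kinase gene of blood progenitors, was PRCr, and Urad had H3K27me3 only. Pol2-S5p covered 18.3% of the region and Pol2-S7p 4.80%. Of the 50 kb to each side of the Cdx2 start, H3K27me3 covered 91.5%, Pol2-S5p 19.4% and Pol2-S7p 0%. Besides the 8600 bp over Cdx2, a Pol2-S5p region of 8400 bp lay over Pdx1.

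Hand1, a basic helix-loop-helix factor of trophoblast giant cells that also acts in the heart, showed the same combination in a narrower domain. It lies on chromosome 11 from 57828705 to 57832818 on the minus strand, and both of its annotated starts were PRCr. The H3K27me3 region was 50400 bp wide, began 42381 bp upstream and ended 3905 bp past the 3′ end. Regions of at least 50 kb touched 10.4% of protein-coding promoters, or 2284 of the 8281 with H3K27me3. No other coding start lay in the region at Hand1. A Pol2-S5p region of 7000 bp began 1381 bp upstream of the gene and ended 1505 bp past its 3′ end, and was the only polymerase region in the domain, of which it covered 13.9%.

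Pol2-S7p appeared beyond the 3′ end of Hand1. The nearest region, of 600 bp, lay 12219 bp downstream of the start, outside the H3K27me3 domain, and others followed up to the neighbour Sap30l, a corepressor subunit gene that was PRCa. The Pol2-S5p regions over Cdx2 and Hand1 had similar widths (8600 and 7000 bp) and scores (9.29 and 9.45), both below the median Pol2-S5p score of 10.8. Their H3K27me3 regions scored 9.92 and 11.1, above the H3K27me3 median of 8.23.

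Eomes, a T-box gene that trophoblast stem cells share with the primitive streak, carried all 3 marks over its whole length. It lies on chromosome 9 from 118478212 to 118486132 on the plus strand, and each of its 3 annotated starts was PRCa. H3K27me3 formed a region of 20400 bp that began 10212 bp upstream and ended 2267 bp past the 3′ end, with a score of 13.6 that 18.5% of H3K27me3 regions exceeded. Pol2-S5p began 2012 bp and Pol2-S7p 212 bp upstream, and both ended at the same position, 4067 bp past the 3′ end. The antisense noncoding gene Gm33460, whose promoter was also PRCa, overlaps the 3′ end of Eomes.

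The Pol2-S7p region at Eomes was among the weaker of its list. Its score was 6.75, and 85.5% of Pol2-S7p regions scored higher, whereas the Pol2-S5p region scored 9.58 (57.0% higher). Pol2-S7p covered 1212 bp of the window at the first start and 1861 bp at the chosen start, Eomes-203. No coding gene lies within 328034 bp upstream, where the next is the Active gene Cmc1. Downstream, Golga4, a Golgi protein gene 20134 bp away, was Active with 100% of its body under Pol2-S5p.

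Tfap2c, which encodes the AP-2 gamma factor of trophoblast and of germ cell precursors, lay in the widest H3K27me3 region of the 7 and yet had the highest-scoring polymerase regions. The gene is on chromosome 2 from 172549593 to 172558622 on the plus strand, and all 6 of its annotated starts were PRCa with every mark over all 2000 bp of each window. Its H3K27me3 region was 150200 bp wide (chr2:172474400-172624599), held no other coding start, and scored 8.06, which 51.4% of H3K27me3 regions exceeded. Its Pol2-S5p region of 12800 bp scored 21.0 (22.4% higher) and its Pol2-S7p region of 12000 bp 22.5 (23.4% higher). These regions began 4793 and 3993 bp upstream.

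Both polymerase regions at Tfap2c stopped at the same position, 1023 bp before the 3′ end and within the untranslated part of exon 7. A new region of each mark began 23 bp before the 3′ end, of 10400 bp for Pol2-S5p and 1800 bp for Pol2-S7p. Together they covered 88.9% of the gene. H3K27me3 covered 100% of the 50 kb to each side of the start, Pol2-S5p 75.4% and Pol2-S7p 40.2%. The domains at Cdx2 and Tfap2c thus differed by only 200 bp in width, while Pol2-S5p covered 18.3% of the first and 80.6% of the second. Pol2-S7p covered 4.80% of the domain at Cdx2 and 32.8% of that at Tfap2c.

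**Figure D3:**
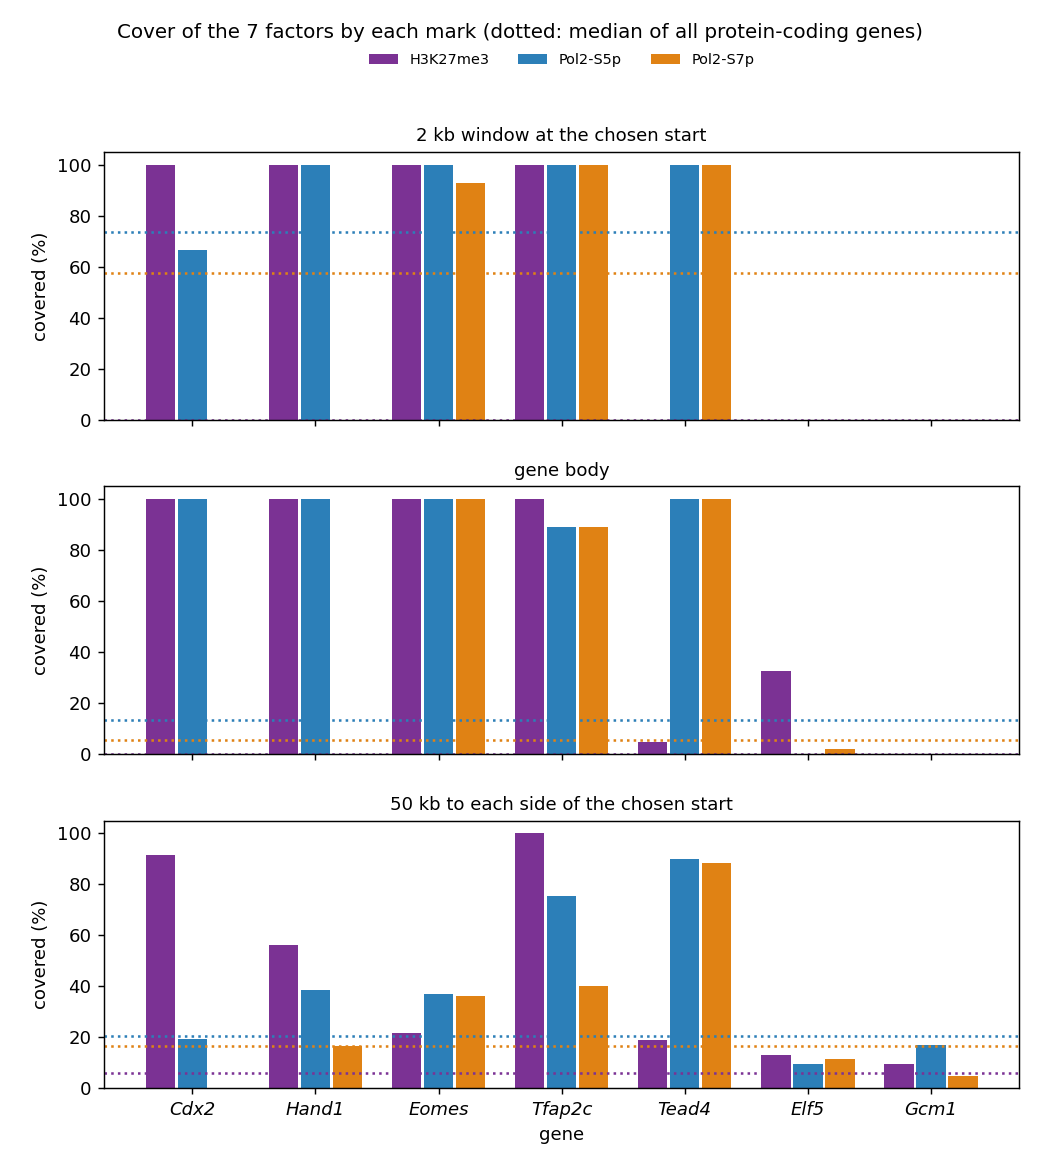
Percent of the 2 kb window at the chosen start, of the gene body and of 50 kb to each side that each mark covered (bars), by gene, with the median of all protein-coding genes as dotted lines. H3K27me3 covered 100% of the bodies of Cdx2, Hand1, Eomes and Tfap2c, against a median of 0% over all genes. Pol2-S7p covered 0% of the window and of the body at Cdx2, Hand1 and Gcm1, and 0% of the window at Elf5.

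Elf5, an ETS factor that sustains trophoblast stem cells and whose promoter is known to be DNA-methylated in embryonic stem cells, had no mark at any of its coding starts. It lies on chromosome 2 from 103411688 to 103450989 on the plus strand and has 7 annotated starts. The windows of its 4 coding transcripts, at the 5′ end and between 12374 and 13140 bp into the gene, were Inactive. H3K27me3 was found only further in, as a region of 12800 bp from intron 2 to intron 4 of the longest coding transcript (22912 to 35711 bp from the 5′ end) that covered 32.6% of the gene. It touched 1521 bp of the window of Elf5-202, a noncoding transcript. Its score was 5.53, and 81.8% of H3K27me3 regions scored higher.

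No Pol2-S5p region touched Elf5. The Pol2-S7p region that covered its last 790 bp (2.01% of the gene) was 35400 bp wide, began in the untranslated part of exon 7 and lay over the neighbour Cat, which encodes catalase. Cat runs toward Elf5 on the minus strand with a gap of 2859 bp between the 3′ ends, and was Active with 100% of its body under both polymerase marks. On the other side, 108409 bp upstream, the related ETS gene Ehf was Inactive, with 0% of its body under any of the 3 marks.

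Gcm1, the glial cells missing homologue that drives formation of the syncytiotrophoblast, was the factor that no region touched. It lies on chromosome 9 from 78051924 to 78065624 on the plus strand and has 1 annotated start. The nearest regions of both polymerase marks ended 4725 bp upstream, with widths of 12400 bp for Pol2-S5p and 2000 bp for Pol2-S7p. The nearest H3K27me3 region, of 400 bp, lay 17125 bp upstream. Of the 50 kb to each side, H3K27me3 covered 9.40%, Pol2-S5p 16.8% and Pol2-S7p 4.80%, near the medians of all genes for H3K27me3 (6%) and Pol2-S5p (20.3%) and below that for Pol2-S7p (16.6%).

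**Figure D4:**
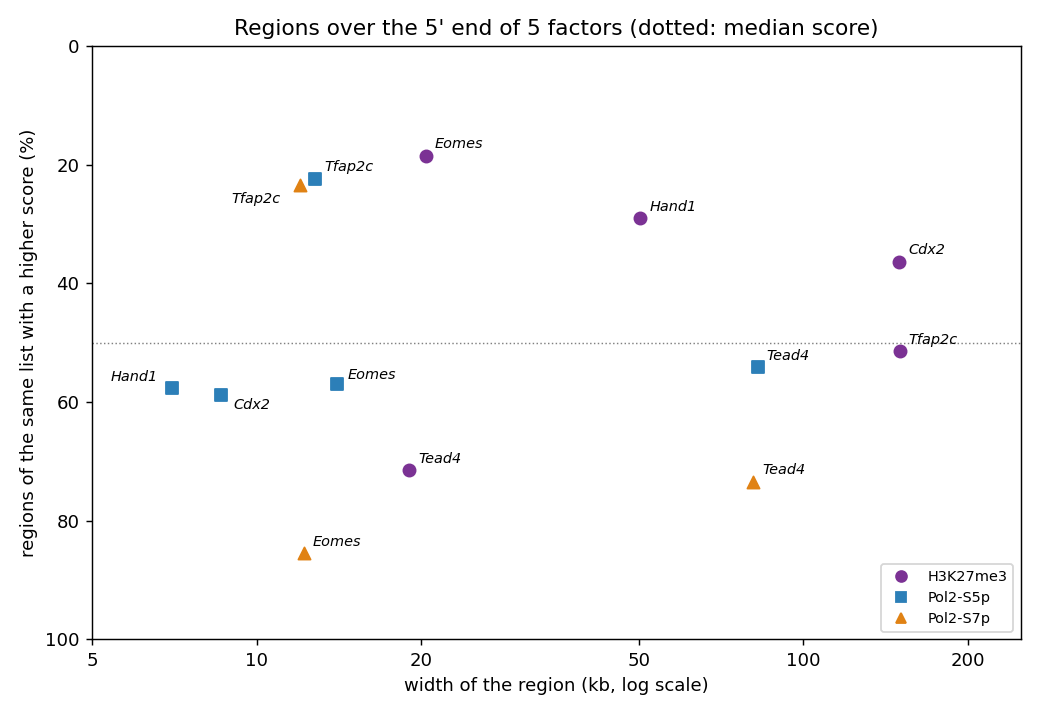
Width in kb on a log scale (x axis) and percent of regions of the same list with a higher score (y axis, best scores at the top) for the regions that lie over the 5′ end of 5 factors. The polymerase regions of Tfap2c rank highest among polymerase regions (22.4% and 23.4% of their lists higher), and the Pol2-S7p region of Eomes lowest (85.5%).

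Across the 7 factors, median cover of the gene body was 100% for H3K27me3, 100% for Pol2-S5p and 2.01% for Pol2-S7p, against 0%, 13.2% and 5.37% over all protein-coding genes. Body cover by H3K27me3 was 50% or more at 4 of the 7 (20.7% of all genes), by Pol2-S5p at 5 (39.0%) and by Pol2-S7p at 3 (34.6%). For each gene and mark, body cover was either 88.9% or more, or 32.6% or less. Cover near the extremes was common over all genes too. H3K27me3 covered 0% of the body at 53.6% of them, and the upper quartile was 100% for each polymerase mark. Of the 50 kb to each side of the start, H3K27me3 covered 50% or more at Cdx2, Hand1 and Tfap2c (14.5% of all genes). Pol2-S5p did so at Tfap2c and Tead4 (30.9%) and Pol2-S7p at Tead4 (25.7%), where most of this span is the gene itself.

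Each H3K27me3 region at a factor's promoter was over 10 kb wide. Such a width was found at 4827 of the 8281 protein-coding promoters with H3K27me3, which are 22.0% of all protein-coding promoters when those without the mark are counted in. With H3K27me3 regions over 10 kb left out, no factor kept the mark (15.8% of all genes did), Cdx2 and Hand1 had Pol2-S5p only, and Eomes, Tfap2c and Tead4 were Active. With polymerase regions over 10 kb left out instead, Cdx2 and Hand1 stayed PRCr, while Eomes, Tfap2c and Tead4 had H3K27me3 only. The Pol2-S5p regions over Cdx2 and Hand1 were below that width. When each list was limited to scores above its median, Tfap2c was Active, Cdx2, Hand1 and Eomes had H3K27me3 only, and Tead4 had no mark.

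The third comparison set the factors beside paralogues chosen by name, which do not include every T-box or ETS gene. Of these 16 paralogues, 14 had H3K27me3 (37.7% of all genes). They were 7 PRCr genes (7.66%), 6 PRCa genes (23.9%) and 1, Gcm2, with H3K27me3 only (6.02%). Above the median score 8 of the 16 had H3K27me3 (24.9% of all genes), and with H3K27me3 regions over 10 kb left out 1 did (15.8%). In the CDX family, Cdx1 and Cdx4 were PRCr like Cdx2. In the AP-2 family, whose members pattern the neural crest, Tfap2a, Tfap2b and Tfap2d were PRCr, and Tfap2e was PRCa with Pol2-S7p over 2.00% of its window, against 100% at Tfap2c. Among T-box relatives of Eomes, Tbr1 of cortical neurons was PRCa, and the mesoderm gene T and the T-cell gene Tbx21 were PRCr.

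Hand2, the heart and limb partner of Hand1, was PRCa with Pol2-S7p over 29.1% of its window. All 4 TEAD genes had both Pol2-S5p (69.9% of all genes) and Pol2-S7p (60.4%). Tead1 was Active, and Tead2 and Tead3 were PRCa, with H3K27me3 over 11.7% of the body of Tead2 and 95.8% of that of Tead3. In the ETS family Elf3 was PRCa, with H3K27me3 over 21.6% of its window, and Ehf was Inactive like Elf5. Gcm2, the parathyroid paralogue of Gcm1, lay in an H3K27me3 region of 40200 bp, while Gcm1 had no mark.

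Signals that act on Tead4 and Cdx2 come from the Hippo and Notch pathways. Of 22 Hippo and Notch genes, 20 had both polymerase marks, 11 as Active (35.9% of all genes) and 9 as PRCa (23.9%). Yap1, the co-activator of Tead4, and the Notch effector Rbpj and receptor Notch1 were Active, as was the TEAD cofactor Vgll4. Wwtr1, the other co-activator of Tead4, was PRCa, with H3K27me3 over 48.6% of its window. The kinase gene Lats2, the adaptor gene Sav1, Amotl1 and Notch2 were PRCa. Vgll2 was PRCr and Vgll1 Inactive. At the start of the longest coding transcript Rbpj had Pol2-S7p only, Vgll4 was PRCa and Amotl1 was Inactive. H3K27me3 was present at 10 of 22, against 37.7% of all genes.

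Of 25 other trophoblast regulators, 23 had H3K27me3 (37.7% of all genes) and all 25 had Pol2-S5p (69.9%). There were 16 PRCa genes (23.9% of all genes), among them Arid3a, Ascl2, Bhlhe40 and Ets2, and 7 PRCr genes (7.66%), among them Gata2, Dlx3, Esx1 and Cited1. Klf5 and Grhl3 were Active. None of these 25 was Inactive, the state of Elf5 and Gcm1. Widths of H3K27me3 regions at these promoters ran from 1400 bp at Cited2 to 374400 bp at Arid3a.

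**Figure D5:**
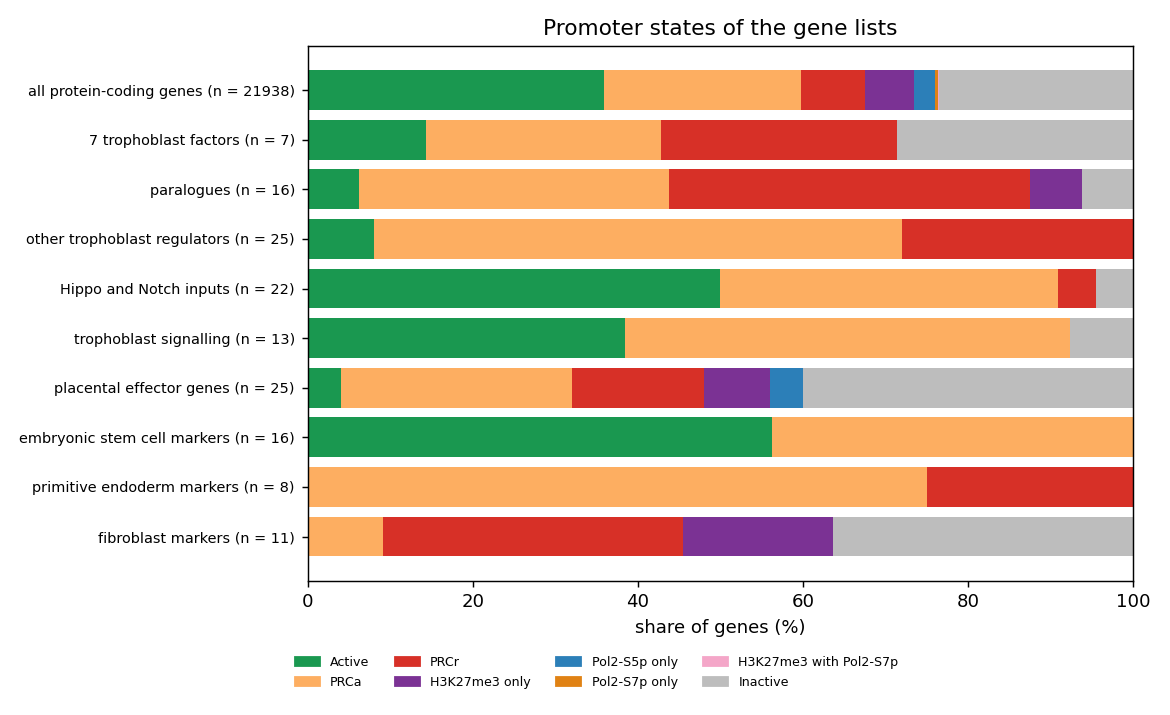
Share of genes in each promoter state (x axis, percent) for all protein-coding genes, the 7 trophoblast factors and the comparison lists, with the number of genes in brackets. At the chosen starts 2 of the 7 factors were PRCr, 2 PRCa, 2 Inactive and 1 Active, whereas all 16 embryonic stem cell markers were Active or PRCa.

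Markers were read as a check of the cells. At the chosen starts all 16 embryonic stem cell markers had both polymerase marks, 9 as Active (35.9% of all genes), including Sall4, Esrrb, Tfcp2l1 and Tdgf1, and 7 as PRCa (23.9%), including Tbx3, Prdm14, Dppa3 and Klf2. At the start of the longest coding transcript 14 of the 16 had Pol2-S5p (67.2% of all genes), Esrrb had H3K27me3 only and Nr5a2 was Inactive. With polymerase regions over 10 kb left out, 0 of the 16 had Pol2-S5p (33.0% of all genes). The 8 markers of primitive endoderm, the other extraembryonic lineage, all had H3K27me3 (37.7% of all genes) and Pol2-S5p (69.9%), with Gata4, Gata6, Foxa2 and Dab2 among the 6 PRCa genes, and Sox17 and Hnf4a PRCr. Of 11 fibroblast markers, the cell type of the feeders, 1 (Twist1) had Pol2-S7p at its promoter (60.4% of all genes). Pol2-S5p was present at 5 of the 11 (69.9% of all genes), Twist1 and the 4 PRCr genes Thy1, Twist2, Prrx1 and Pdgfrb. Col3a1, Postn, Lum and Dcn were Inactive, and Col1a1 and Col1a2 had H3K27me3 only. Marks on separate alleles or in separate cells cannot be told apart in these lists, so all 3 marks at 1 promoter need not lie on the same chromosome copy.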

How the data were processed

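ChIP-seq regions of H3K27me3, Pol2-S5p and Pol2-S7p in F123 cells were analysed, 1 library per mark, with no replicates. The authors mapped 75-bp reads to a variant-masked mm10 genome using Bowtie2 (version 2.3.4.3) and called enriched regions by Bayesian change-point analysis with default parameters. The deposited score has no stated unit and was used only to rank or filter regions. The deposited width is an other kind of value, in bp and in steps of 200 bp. No read counts are held in the lists, and library depth was not used here.

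Starts and genes came from GENCODE M21 (GRCm38, the assembly of mm10), and sequence from GRCm38.p6. Positions count from 1. A region counted from 1 bp of overlap. The read threshold and gene exclusions of the study were not applied. CpG ratios are CpG count times length over the product of C and G counts. All 7 factors and all 16 listed paralogues are named. Of each other list, up to 4 genes per state are named, ranked by H3K27me3 cover of the window or by Pol2-S5p region width. Wwtr1, Cited2 and Nr5a2 were named after their values were seen. The members, lists and alternatives were chosen with earlier results of these data known. Alternatives changed the window, start, width, score or overlap, and the start was chosen again under each. Functions were tested on simulated regions. Python 3.11.15, NumPy 2.4.6 and Matplotlib 3.10.9 were used.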

Additional observations from a re-analysis of the deposited data

How the results depend on the processing

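No paired analysis was possible because each mark has 1 library and no test was made. Counts among the 7 factors that moved by over 1.5 times are given here, and 67 of 108 recomputed values moved less. Percentages in brackets are shares of all protein-coding genes under the same setting. No such share was computed for H3K27me3 only and Pol2-S5p only, so their counts cannot be set against all genes. In the main setting these states held 6.02% and 2.46% of all genes. With H3K27me3 regions over 10 kb left out, 0 had H3K27me3 (15.8%), 0 were PRCa (10.4%) or PRCr (3.02%), 3 were Active (49.4%) and 2 had Pol2-S5p only. With polymerase regions over 10 kb left out, 2 had Pol2-S5p (33.0%), 0 Pol2-S7p (25.8%), 0 were PRCa (10.6%) or Active (9.89%) and 3 had H3K27me3 only. With regions above the median score, 1 had Pol2-S5p (44.7%), 1 Pol2-S7p (36.4%), 0 were PRCa (8.57%) or PRCr (5.34%) and 3 had H3K27me3 only. In the top 25% of scores, 1 had H3K27me3 (13.2%), 1 Pol2-S5p (21.2%) and 1 Pol2-S7p (18.5%). There 0 were PRCa (1.55%) or PRCr (1.39%), 5 were Inactive (64.1%) and 1 had H3K27me3 only. Active fell to 0 with a window of 1 kb (35.7%), the longest coding transcript (33.8%) or any start (33.4%). Inactive fell to 1 with a window of 4 kb (22.8%) and with any start (23.0%), where 1 had H3K27me3 only. Elf5 was the gene that changed in both.

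Median body cover fell to 0% for each mark with regions above the median score or of at most 10 kb. Median cover of the surroundings by H3K27me3 was 90.1% at 10 kb, 13.4% at 100 kb and 0.600% above the median score. For Pol2-S5p it was 0% above the median score, and for Pol2-S7p 10.0% at 10 kb, 25.8% at 100 kb and 0% above the median score. Leaving out genes that share a window changed no state, and 50% cover changed none.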

Other observations

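Placental effector genes act after the trophoblast factors. Of 25 placental effector genes, 10 were Inactive, among them the cathepsins Ctsj and Ctsq, Plac1 and the steroid enzyme gene Hsd3b6, against 23.5% of all protein-coding genes. The syncytin genes Syna and Synb, which fuse trophoblast cells, had H3K27me3 only, in regions of 93200 and 5200 bp. Epithelial genes of trophoblast were marked otherwise. Krt8 and Krt18 were PRCa within 1 H3K27me3 region of 151600 bp, Krt7 and Krt19 were PRCr, and Cdh3 was PRCa. Slc16a1, a lactate carrier gene, was Active, and Plet1 had Pol2-S5p only.

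Of 13 signalling genes of trophoblast, 12 had both polymerase marks. Fgf4, Nodal, Fgfr2 and Igf2r were among the 5 Active genes (35.9% of all protein-coding genes), and Furin, Bmpr2, Egfr and Met among the 7 PRCa genes (23.9%). Hgf was Inactive.

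Genes most like each factor were found by the mean absolute difference over 9 cover values, namely 3 marks in the window, the body and 50 kb to each side, all read from the same 3 libraries. Pdx1, which shares the H3K27me3 region of Cdx2, was the closest to Cdx2 (1.39 percentage points), followed by Mc3r and Gsc. Wnt8a was the closest to Hand1 (1.24), Saa2 to Eomes (1.56), Gnat1 to Tfap2c (2.69), Baz1b to Tead4 (0.749), Scml4 to Elf5 (1.14) and Wfdc21 to Gcm1 (0.349). Within 5 percentage points lay 7 genes for Cdx2 and 27 for Tfap2c, against 4719 for Gcm1.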
